A study of Mus musculus with 6 samples.

Results

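The genes described here are 38 genes of DNA replication and S phase, chosen by name: the MCM2-7 helicase and its licensing factors, the GINS complex, the sliding clamp and its loader, the replicative polymerases and primase, the single-strand binding and Okazaki fragment genes, nucleotide supply, and cyclins E and A with E2F1. All 38 of them were among the 23999 gene symbols of the count table, and all 38 passed the filter on low counts. The RNA came from mouse embryonic stem cells, cultured pluripotent cells of the early embryo, and was selected for poly(A). Every sample, controls included, carried a floxed element called -5 and an exogenous V5-tagged mouse Nanog. One group of 3 samples received ethanol as vehicle for 6 days, and the other group of 3 received tamoxifen (4OHT), an oestrogen receptor ligand commonly used to activate a Cre recombinase, for 6 days. The labels name no Cre driver, and neither the number of clones nor separate cultures are given in the sources used here, so the p-values measure the spread between these samples, which may be technical. The series title concerns an enhancer of Nanog, and the comparison of 4OHT with vehicle asked which genes differed after this treatment.

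A cell copies its genome once per division. In G1, CDC6 and CDT1 help to load the ring-shaped MCM2-7 helicase onto origins (licensing), and geminin later blocks CDT1 so that no origin is loaded again. In S phase the helicase is activated with CDC45 and GINS, primase and polymerase alpha start each strand, and polymerases delta and epsilon, held by the clamp PCNA, extend it. Embryonic stem cells cycle fast with a short G1 and are known for high levels of cyclin E and of licensing factors.

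The libraries held 52250671, 20030423 and 26370388 counts in vehicle and 55194644, 515388 and 31307423 counts in 4OHT replicates 1 to 3. In 4OHT replicate 2 a single read was worth 1.91 CPM (CPM being counts scaled to library size with TMM factors), and each of the 38 genes had 8 to 512 reads there, against 380 to 57034 in the other libraries. Nanog stood at 631, 660 and 641 CPM in vehicle and at 177, 172 and 194 CPM in 4OHT, where reads of the tagged copy cannot be told from those of the endogenous gene. The 8 stem cell markers summed to between 6057 and 6227 CPM in vehicle and between 6000.0 and 6339 CPM in 4OHT, and none was at 0. Of these 8 markers 2 rose and 1 fell. The log2 fold changes, 4OHT over vehicle, were 0.54 for Sall4, 0.18 for Sox2 and -0.21 for Pou5f1. The 7 endoderm markers summed to 6.65 to 7.84 CPM in vehicle and to 42.0 to 63.5 CPM in 4OHT, and all 7 rose. For Gata4, Sox17 and Sox7 the groups overlapped, with 0 reads in the shallow 4OHT replicate 2. The fibroblast markers summed to 24.4 to 26.1 CPM in vehicle and 14.01 to 19.1 CPM in 4OHT, with Thy1 lower, Postn without a read in any library, and Dcn and Lum without a read in 4OHT and in vehicle, respectively. The 5 neural markers summed to 146 to 153 CPM in vehicle and 89.6 to 93.4 CPM in 4OHT (1 rose, 2 fell), and the 5 mesendoderm markers to 11.4 to 11.5 and 11.7 to 22.9 CPM (2 rose). The part of these other cell types in the results below was not tested.

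Replication and S phase transcripts stayed close to their vehicle level in the 4OHT samples. Of the 38 genes 1 rose (Pold1) and 3 fell (Pold2, Rpa2 and Rfc4) in edgeR's quasi-likelihood test. The other 34 did not pass at an adjusted p of 0.05. Thus 10.5% of the 38 were called, beside 22.4% of all 14458 tested genes (11.9% rises and 10.5% falls). The share was also 22.4% among the 7466 tested genes whose mean level was at least that of the lowest of the 38. An unadjusted p under 0.05 was held by 9 of the 38 and by 4868 of all 14458 tested genes. The median log2 fold change (4OHT over vehicle) was -0.02, against 0.00 for all tested genes, and the median absolute change was 0.09 against 0.14, or 0.10 among the 7466 genes. The log2 fold changes of the 38 lay between -0.30 and 0.27, with 14 above 0 and 24 below. The 95% interval of the fold change lay within 1.25-fold, a bound chosen after the values were seen, for 33 of the 38 genes (86.8%), against 72.2% of the 7466 genes. Fewer cells in S phase and less of each transcript per cell cannot be told apart in bulk RNA.

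**Figure D1:**
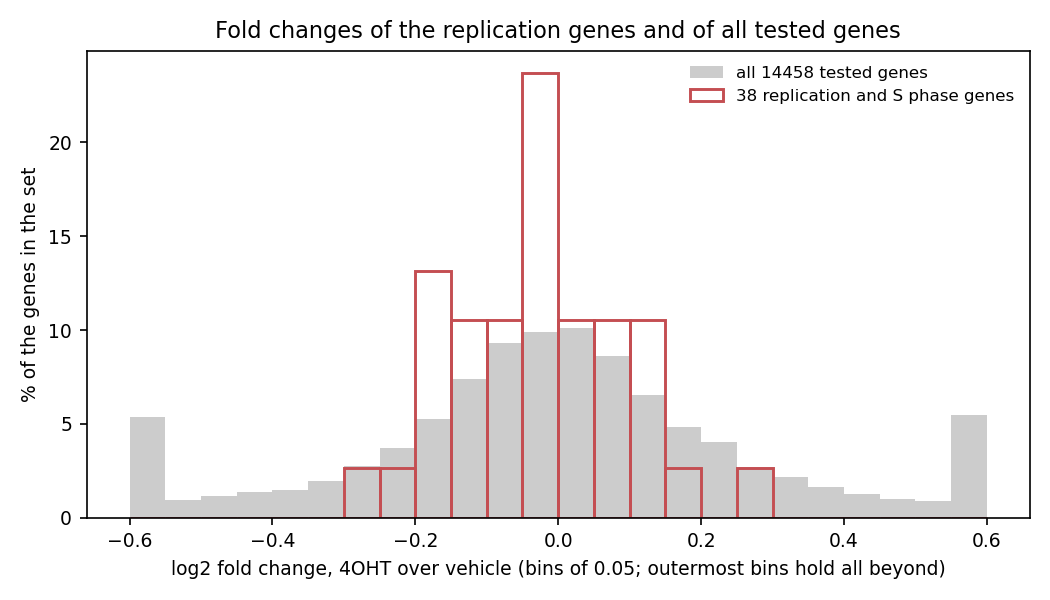
Share of genes (%) by log2 fold change, 4OHT over vehicle, in bins of 0.05, for all 14458 tested genes (grey bars) and the 38 replication and S phase genes (red outlines); the outermost bins hold everything beyond. The 38 genes lie between -0.30 and 0.27, while the grey bars also fill the outermost bins.

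With the replicate number as a block, which compares same-numbered samples, 3 of the 38 genes rose and 6 fell (23.7%, beside 28.2% of all tested genes: 14.6% rises and 13.5% falls). The added genes were Rfc5 and Ccne1 among the rises and Rfc1, Mcm5 and Pcna among the falls, and all 4 earlier calls were kept. In the blocked fit the spread was in effect pooled over genes. Its p-values and intervals therefore do not reflect how far a gene's own same-numbered pairs differ from each other. Leaving number 2 out of this blocked fit, because of the shallow 4OHT replicate 2, gave 2 rises and 5 falls (18.4%, beside 24.2% of all tested genes: 12.8% rises and 11.4% falls). DESeq2 called 1 rise and 2 falls (7.89%, beside 7.07% of the genes it gave an adjusted p: 4.14% rises and 2.94% falls). The unblocked counts moved with single libraries, as did the share called among all tested genes. Without vehicle replicate 1, 1 gene rose and 5 fell (15.8%, beside 17.8% of all: 9.08% rises and 8.71% falls). Without 4OHT replicate 1, 4 rose and 4 fell (21.1%, beside 25.6%: 13.4% rises and 12.2% falls). Without 4OHT replicate 3, 2 rose and 5 fell (18.4%, beside 27.2%: 13.3% rises and 13.9% falls). Without the shallow 4OHT replicate 2, 1 gene rose and 2 fell (7.89%, beside 21.1% of all tested genes: 11.5% rises and 9.56% falls).

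In all 3 4OHT samples 5 genes stood above all 3 vehicle samples (Pold1, Rfc5, Mcm7, Pole and Rpa1) and 8 stood below (Pold2, Rpa2, Rfc4, Pcna, Mcm5, Gins2, Pola2 and Ccne2). These 13 genes are 34.2% of the set, and 31.3% of all tested genes had groups that did not overlap in this way (14.7% above and 16.5% below). The coefficient of variation between replicates had a median of 2.73% in vehicle (0.592% to 10.5%) and of 6.4% in 4OHT (1.06% to 23.2%), which includes the shallow library. Of the raw counts of the vehicle libraries the 38 genes together took 0.962%, 0.965% and 0.969%. In the 4OHT libraries they took 0.942%, 0.947% and 0.935%. Every raw 4OHT share lay below every raw vehicle share. These shares did not use the TMM factors, which were 1.013 in vehicle replicate 1 and 0.979 in 4OHT replicate 3. After TMM scaling the summed levels of the groups overlapped, with 4OHT replicate 3 above vehicle replicate 1.

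**Figure D2:**
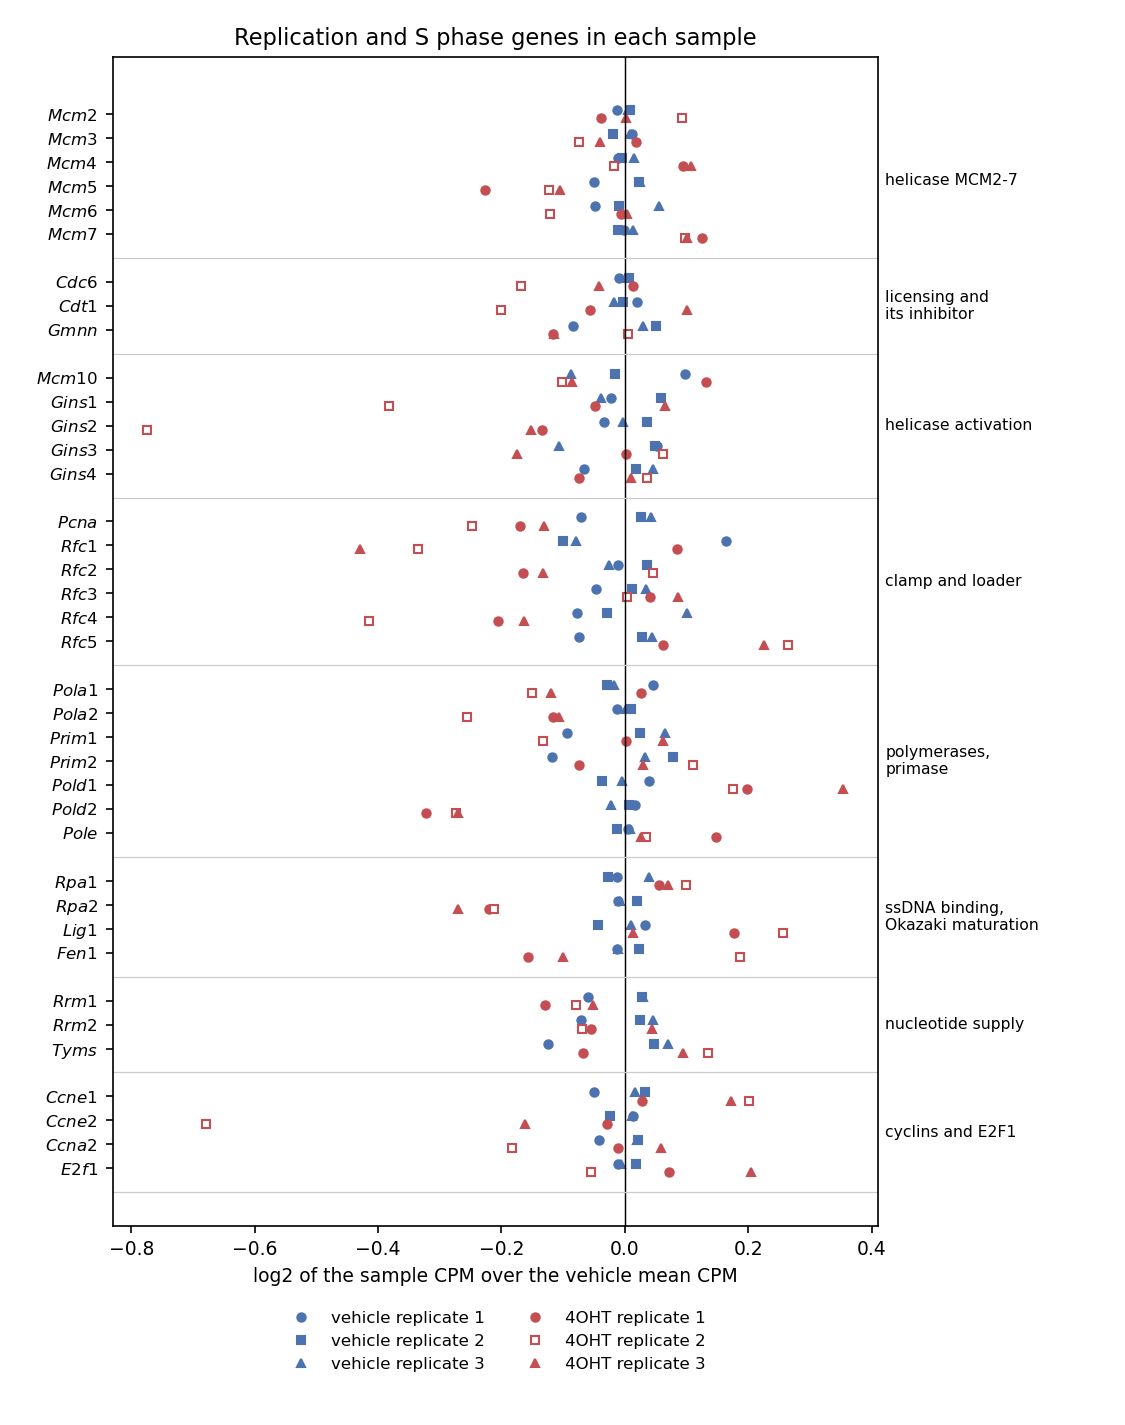
Level of each of the 38 genes in each sample as log2 of its CPM over the vehicle mean (x axis), by role; vehicle in blue and 4OHT in red, with circles, squares and triangles for replicates 1, 2 and 3 and an open symbol for the shallow 4OHT replicate 2. Most 4OHT values sit near 0, those of Pold2 and Rpa2 lie left of and those of Pold1 right of every vehicle value, and the farthest symbols, of Gins2 and Ccne2, are open ones.

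**Figure D3:**
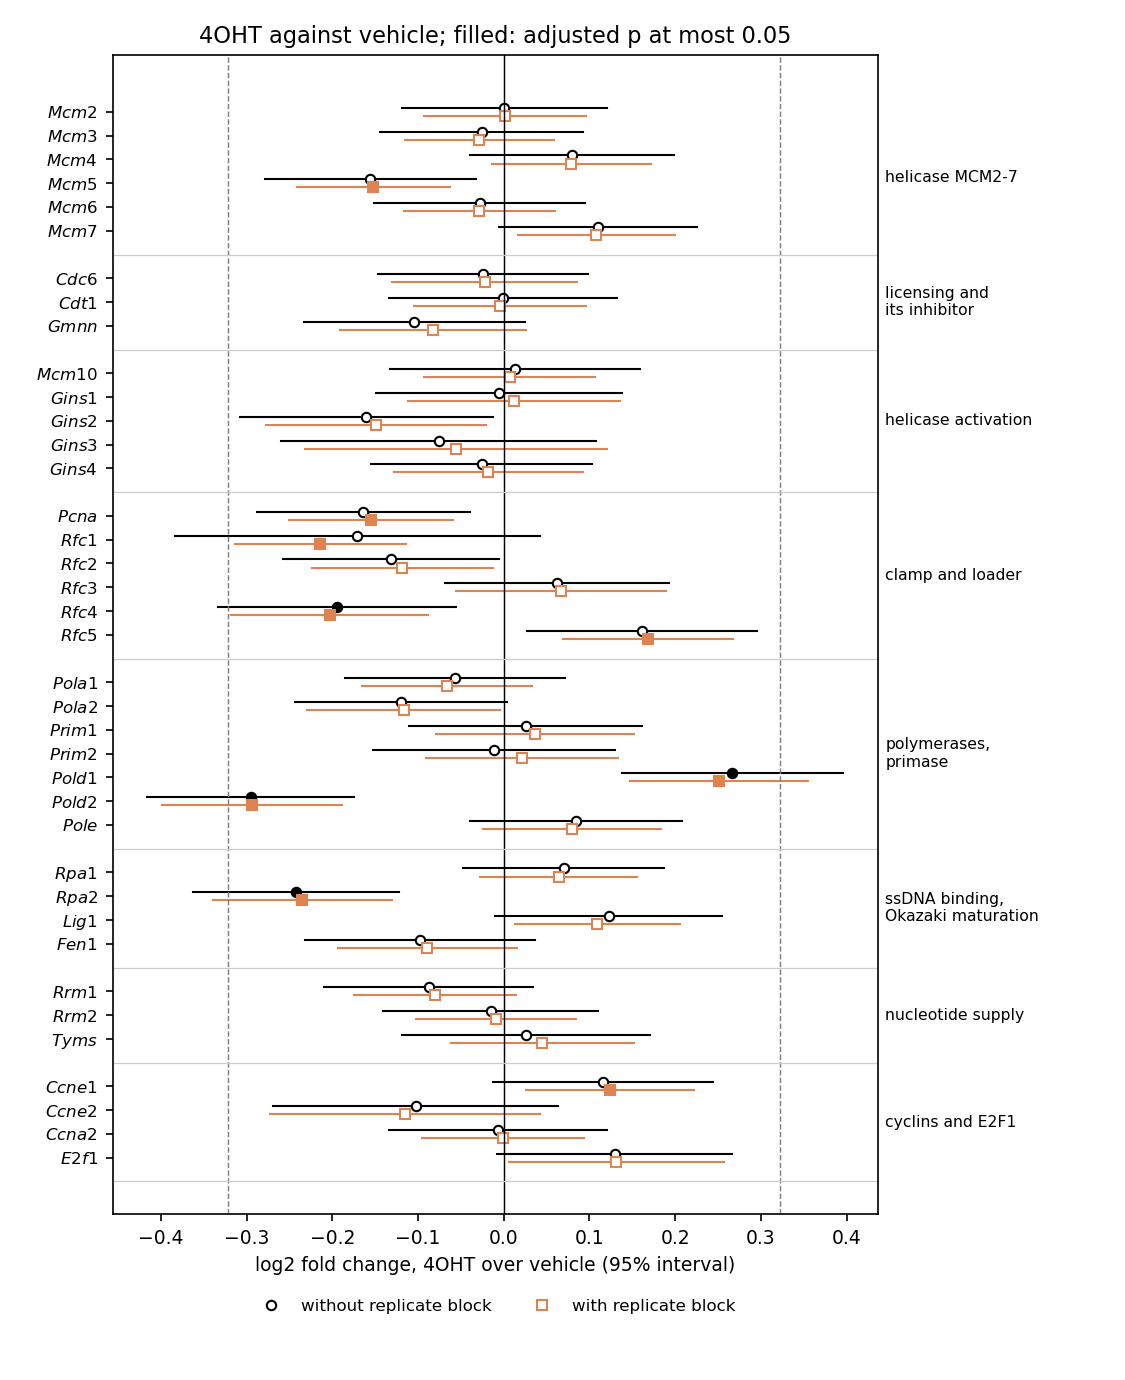
Log2 fold change of 4OHT over vehicle (x axis) with its 95% interval for the 38 genes, from the fit without a block (black circles) and from the blocked fit (orange squares); filled symbols have an adjusted p of at most 0.05 and dashed lines mark 1.25-fold. Filled black symbols are those of Pold1, Pold2, Rpa2 and Rfc4, and the blocked fit adds 5 filled symbols.

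Of the 6 MCM2-7 genes, which encode the ring of the replicative helicase, none passed in edgeR (1 at an unadjusted p under 0.05) or in DESeq2 (0 calls, 1 at an unadjusted p under 0.05). Mcm5 came nearest. It stood at 778, 818 and 818 CPM in vehicle replicates 1 to 3 and 688, 739 and 748 CPM in the 4OHT replicates, every 4OHT value below every vehicle value (log2 fold change -0.16, SE 0.06, 95% interval -0.28 to -0.03, edgeR adjusted p = 0.0653). With the replicate block Mcm5 fell by 0.15 on the log2 scale (edgeR adjusted p = 0.00462), and all 3 same-numbered pairs were lower in 4OHT. With RLE size factors the unblocked adjusted p of Mcm5 was 0.0494 and with quantile normalization in limma-voom 0.0124. Leaving out vehicle replicate 1 gave 0.0466 and leaving out 4OHT replicate 3 gave 0.0248. Mcm5 was not called in 7 of the 13 other fits, among them DESeq2 (adjusted p = 0.0889).

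Mcm7 lay on the other side. It stood at 494, 490.5 and 499 CPM in vehicle replicates 1 to 3 and 539, 529 and 530.05 CPM in the 4OHT replicates, with no overlap but no call (log2 fold change 0.11, SE 0.06, 95% interval -0.01 to 0.23, edgeR adjusted p = 0.17). Mcm2 stood at 358, 364 and 363 CPM in vehicle replicates 1 to 3 and 352, 386 and 362 CPM in the 4OHT replicates, and its log2 fold change was 0.00 (95% interval -0.12 to 0.12). Its vehicle range lay inside its 4OHT range. Mcm3 stood at 1037, 1016 and 1035 CPM in vehicle replicates 1 to 3 and 1042, 978 and 1001 CPM in the 4OHT replicates (log2 fold change -0.03, 95% interval -0.14 to 0.09). Mcm4 stood at 465, 466 and 473 CPM in vehicle replicates 1 to 3 and 499.6, 462 and 504 CPM in the 4OHT replicates (log2 fold change 0.08, 95% interval -0.04 to 0.20). Mcm6 stood at 848, 871 and 911 CPM in vehicle replicates 1 to 3 and 873, 806 and 879 CPM in the 4OHT replicates (log2 fold change -0.03, 95% interval -0.15 to 0.10). In these 3 genes the groups overlapped. Together the 6 genes took 0.403%, 0.404% and 0.408% of the raw vehicle counts and 0.396%, 0.396% and 0.394% of the raw 4OHT counts. After TMM scaling their summed levels overlapped between the groups. All 6 intervals lay within 1.25-fold.

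The ring holds each subunit once, but the transcripts differed in level. As RPKM (reads per kilobase of the principal transcript, scaled like CPM), the vehicle means were 340 for Mcm3, 301 for Mcm6, 238 for Mcm5, 167 for Mcm7, 130.4 for Mcm4 and 107 for Mcm2. In 4OHT they were 332 for Mcm3, 293 for Mcm6, 214 for Mcm5, 179.9 for Mcm7, 136 for Mcm4 and 109 for Mcm2. With these lengths the order was the same in both groups, and in each of the 6 samples no neighbours in it changed places. It rests on the lengths taken. With all exons of a gene merged, Mcm5 (202 RPKM) came before Mcm6 (188) in vehicle, while in 4OHT Mcm5 stood at 182 and Mcm6 at 183 RPKM. Mcm4 then came before Mcm7 in both groups (130.4 and 112 RPKM in vehicle, 136 and 120.4 in 4OHT).

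None of the licensing genes passed in edgeR or DESeq2, and 0 had an unadjusted p under 0.05 in either. Cdc6, a loader of the helicase, had a log2 fold change of -0.02 (its 95% interval was -0.15 to 0.10), and Cdt1, its partner, one of -0.00 (95% interval -0.13 to 0.13). Gmnn, which encodes the CDT1 inhibitor geminin, stood at 114 ± 5.68 and 108 ± 5.29 CPM (SD, n = 3) in vehicle and 4OHT (log2 fold change -0.10, 95% interval -0.23 to 0.02). In helicase activation Mcm10 (0.01), Gins1 (-0.01), Gins3 (-0.08) and Gins4 (-0.03) had log2 fold changes near 0, and none of the 5 genes passed in edgeR (1 at an unadjusted p under 0.05) or DESeq2 (0 at an unadjusted p under 0.05). Gins2 stood at 47.8, 50.2 and 48.9 CPM in vehicle replicates 1 to 3 and 44.6, 28.6 and 44.1 CPM in the 4OHT replicates (log2 fold change -0.16, edgeR adjusted p = 0.115). The value of Gins2 in 4OHT replicate 2 rests on 15 reads, and 67.3% of its exon bases overlap the opposite-strand gene Gse1, so that without a stated use of strand its reads are uncertain.

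Of the 6 clamp and clamp loader genes 1 fell without a block (16.7%, beside 22.4% of all tested genes). With the block 1 rose and 3 fell (66.7%, beside 28.2%). DESeq2 called 0 of the 6 (beside 7.07% of the genes it gave an adjusted p). The unblocked fit without 4OHT replicate 2 also called 0 (beside 21.1%). PCNA is the ring that tethers polymerases to DNA, and the RFC1 to RFC5 complex opens it and places it at primers. Pcna stood at 321, 344 and 348 CPM in vehicle replicates 1 to 3 and 299.996, 284 and 308 CPM in the 4OHT replicates, lower in every 4OHT sample but just short of the threshold (log2 fold change -0.16, SE 0.06, 95% interval -0.29 to -0.04, edgeR adjusted p = 0.0533). With the block it fell by 0.15 on the log2 scale (edgeR adjusted p = 0.00803), and without number 2 in the blocked fit the adjusted p was 0.0564. The unblocked adjusted p of Pcna was 0.0398 with RLE size factors, 0.0320 with quantile normalization, 0.0276 when vehicle replicate 1 was left out and 0.0305 when 4OHT replicate 3 was. Pcna was not called in 8 of the 13 other fits, among them DESeq2 (adjusted p = 0.134).

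Rfc4, a small loader subunit, fell. It stood at 77.2, 79.8 and 87.4 CPM in vehicle replicates 1 to 3 and 70.7, 61.1 and 72.8 CPM in the 4OHT replicates, with no overlap (log2 fold change -0.19, SE 0.07, 95% interval -0.33 to -0.06, edgeR adjusted p = 0.0412). The call was lost without vehicle replicate 2 (adjusted p = 0.0677), vehicle replicate 3 (0.234) or 4OHT replicate 2 (0.0687), in limma-voom (0.0872) and in DESeq2 (0.293). The blocked fit gave a log2 fold change of -0.20 (edgeR adjusted p = 0.00332). Of its exon bases 12.7% overlap Eif4a2 on the other strand, whose own log2 fold change was 0.19.

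Rfc5 stood at 189, 203 and 205 CPM in vehicle replicates 1 to 3 and 207, 239 and 233 CPM in the 4OHT replicates, every 4OHT value above every vehicle value (log2 fold change 0.16, SE 0.06, 95% interval 0.03 to 0.29, edgeR adjusted p = 0.0794). It rose in the blocked fit (log2 fold change 0.17, edgeR adjusted p = 0.00516), and its unblocked adjusted p without 4OHT replicate 1 was 0.00131. Rfc5 was not called in 10 of the 13 other fits. The gene Wsb2, on the other strand, covers 10.7% of the exon bases of Rfc5 and itself fell (log2 fold change -0.22). Rfc1, the large subunit, had the widest spread of the set among vehicle samples. It stood at 278, 231 and 235 CPM in vehicle replicates 1 to 3 and 263, 197 and 184 CPM in the 4OHT replicates, and replicate 1 was the highest of both groups. The unblocked fit gave no call (log2 fold change -0.17, SE 0.10, 95% interval -0.38 to 0.04, edgeR adjusted p = 0.258). All 3 same-numbered pairs were lower in 4OHT, with log2 differences of -0.08, -0.24 and -0.35, and Rfc1 fell in the blocked fit (log2 fold change -0.21, edgeR adjusted p = 0.000215). That p-value rests on a spread pooled over genes and not on the spread of these 3 differences. Without 4OHT replicate 1 the unblocked log2 fold change was -0.42 (edgeR adjusted p = 5.95e-09), and without 4OHT replicate 3 it was 0.02 (0.881), so the value depends on single libraries. Rfc2 and Rfc3 did not pass, the log2 fold changes being -0.13 (95% interval -0.26 to -0.01) and 0.06 (-0.07 to 0.19).

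The catalytic and the accessory subunit of polymerase delta differed in opposite directions. Pold1, which encodes the catalytic subunit, stood at 146, 138 and 142 CPM in vehicle replicates 1 to 3 and 163, 160.4 and 181 CPM in the 4OHT replicates. All 4OHT values lay above all vehicle values, and the mean went from 142 ± 3.79 to 168 ± 11.4 CPM (SD, n = 3) (log2 fold change 0.27, SE 0.06, 95% interval 0.14 to 0.40, edgeR adjusted p = 0.00338). Pold2, which encodes a subunit that joins the catalytic one to the rest of the enzyme, stood at 152, 151 and 148 CPM in vehicle replicates 1 to 3 and 119.96, 124 and 124 CPM in the 4OHT replicates. Its mean went from 150.02 ± 2.13 to 123 ± 2.48 CPM (SD, n = 3) (log2 fold change -0.30, SE 0.06, 95% interval -0.42 to -0.17, edgeR adjusted p = 0.000758). Both calls held in each of 13 other fits, with log2 fold changes from 0.19 to 0.33 for Pold1 and from -0.32 to -0.27 for Pold2. The other subunit genes of this enzyme did not pass: Pold3 had a log2 fold change of 0.01 and Pold4, at 2.13 CPM in vehicle, one of -0.28 (SE 0.19).

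**Figure D4:**
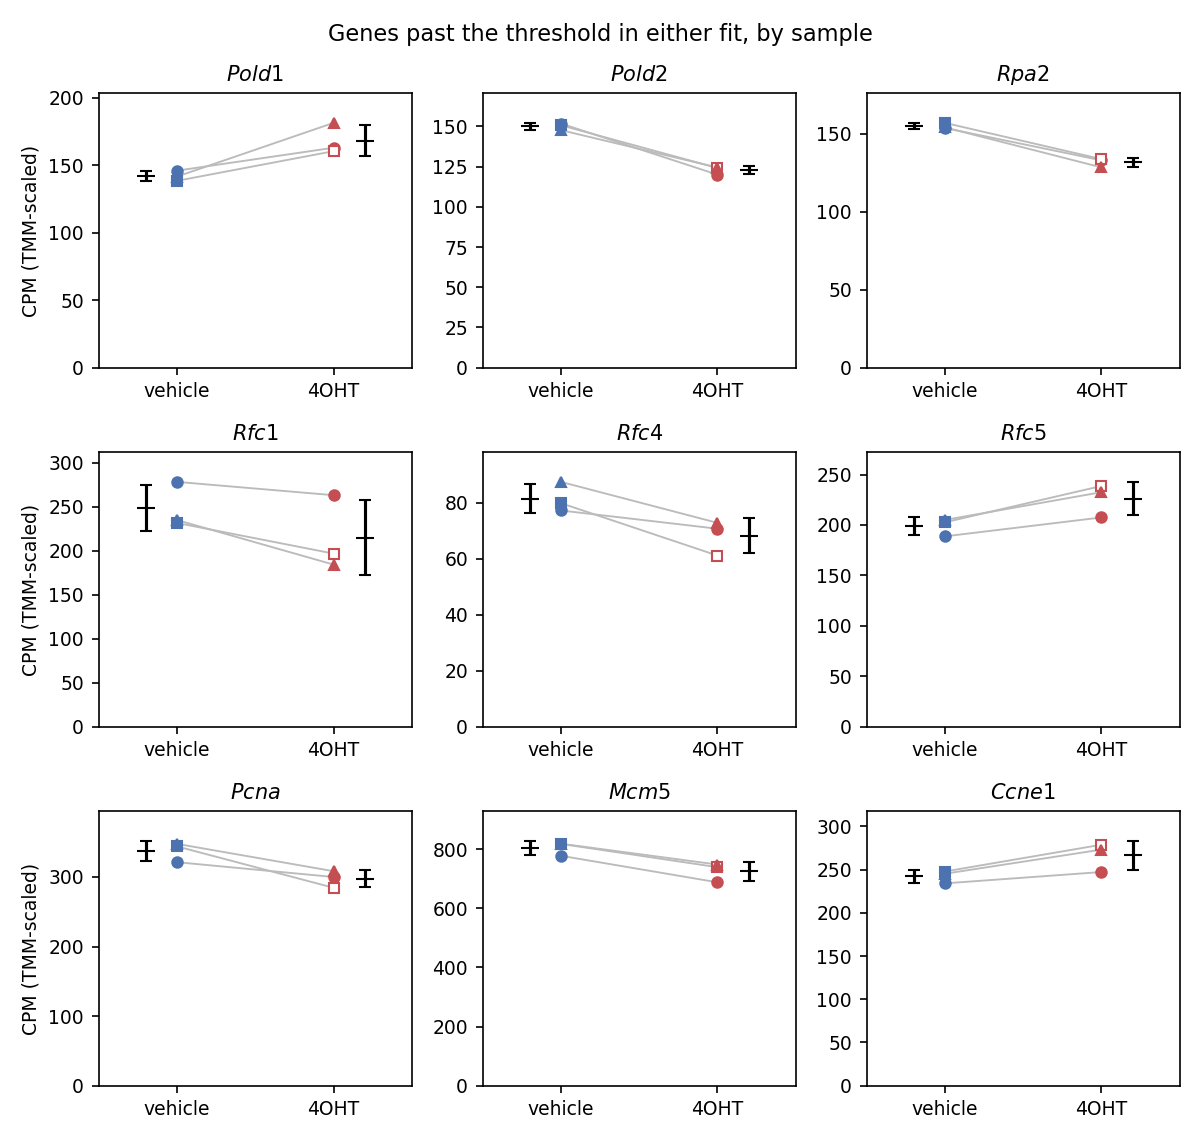
TMM-scaled CPM (y axis, from 0) in vehicle (blue) and 4OHT (red) for the 9 genes past the threshold in the fit with or without a block; grey lines join same-numbered samples (circles, squares and triangles for replicates 1, 2 and 3, open for the shallow 4OHT replicate 2), and bars give mean ± SD. Pold1, Rfc5 and Ccne1 are higher and the other 6 lower in 4OHT in every same-numbered pair.

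The windows around the starts of these 2 genes and of Rpa2 and Mcm5 are shown as examples. These genes differed between the groups in the fit with or without a block. Rfc1, Rfc4, Rfc5, Pcna and Ccne1 did so too, but their windows are not shown. The window of Mcm6 is shown for contrast, as a gene of the same ring as Mcm5 that did not pass. All the windows come from RefSeq on the GRCm38.p6 build and run 5′ to 3′ on the gene's strand. They hold 250 bases before and 50 after the start (position 1, with no position 0). Capitals mark E2F-type letters and CCAAT boxes on either strand. Pold1, Pold2 and Mcm6 lie on the minus strand, Rpa2 and Mcm5 on the plus strand, and Pold2 has 2 listed starts.
Pold1 chr7:44548766-44549065: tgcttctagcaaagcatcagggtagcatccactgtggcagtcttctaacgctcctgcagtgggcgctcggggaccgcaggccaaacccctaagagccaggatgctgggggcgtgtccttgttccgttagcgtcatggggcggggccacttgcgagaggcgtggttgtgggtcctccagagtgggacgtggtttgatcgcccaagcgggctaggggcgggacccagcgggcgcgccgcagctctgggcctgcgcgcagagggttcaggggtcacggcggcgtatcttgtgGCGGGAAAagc
Pold2 chr11:5878207-5878506: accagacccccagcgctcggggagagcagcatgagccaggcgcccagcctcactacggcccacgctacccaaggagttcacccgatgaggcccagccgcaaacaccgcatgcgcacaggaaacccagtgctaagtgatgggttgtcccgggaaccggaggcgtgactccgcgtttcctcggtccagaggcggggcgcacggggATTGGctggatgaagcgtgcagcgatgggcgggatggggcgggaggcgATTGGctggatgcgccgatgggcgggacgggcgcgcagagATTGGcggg
Pold2 chr11:5877614-5877913: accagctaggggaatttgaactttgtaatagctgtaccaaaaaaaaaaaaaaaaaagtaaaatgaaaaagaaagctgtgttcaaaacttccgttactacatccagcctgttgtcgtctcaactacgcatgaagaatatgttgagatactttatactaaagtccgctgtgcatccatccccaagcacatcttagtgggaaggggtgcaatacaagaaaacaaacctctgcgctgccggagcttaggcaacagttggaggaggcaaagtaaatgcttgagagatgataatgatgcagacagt
Rpa2 chr4:132768110-132768409: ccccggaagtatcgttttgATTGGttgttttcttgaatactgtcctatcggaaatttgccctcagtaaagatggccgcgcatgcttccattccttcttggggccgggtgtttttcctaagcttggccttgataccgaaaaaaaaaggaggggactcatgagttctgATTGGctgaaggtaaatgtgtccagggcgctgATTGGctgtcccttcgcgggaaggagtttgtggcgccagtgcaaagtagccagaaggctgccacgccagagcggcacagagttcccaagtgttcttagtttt
Mcm5 chr8:75109259-75109558: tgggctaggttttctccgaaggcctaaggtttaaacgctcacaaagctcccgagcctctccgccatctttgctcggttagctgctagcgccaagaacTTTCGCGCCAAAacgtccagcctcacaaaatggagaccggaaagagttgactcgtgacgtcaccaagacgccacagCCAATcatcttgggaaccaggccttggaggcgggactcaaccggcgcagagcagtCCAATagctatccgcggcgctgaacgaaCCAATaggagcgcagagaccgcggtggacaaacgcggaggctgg
Mcm6 chr1:128359656-128359955: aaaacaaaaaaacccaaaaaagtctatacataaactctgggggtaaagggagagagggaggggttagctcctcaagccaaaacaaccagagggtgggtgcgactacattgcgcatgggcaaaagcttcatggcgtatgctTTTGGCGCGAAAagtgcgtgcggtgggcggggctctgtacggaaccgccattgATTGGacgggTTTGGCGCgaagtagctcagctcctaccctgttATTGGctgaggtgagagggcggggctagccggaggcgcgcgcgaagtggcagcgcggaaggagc

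E2F factors are the transcription factors best known for S phase genes, and CCAAT boxes are bound by NF-Y. The search took as E2F-type the letters TTTCCCGC, TTTGGCGC, TTTCGCGC and TTTGCCGC, as CCAAT box the letters CCAAT, and as CHR, an element of G2 and mitosis genes, TTTGAAA and TTCGAAA, each on both strands and with overlapping matches counted. Of the 38 genes 28 had an entry, with 33 windows, and Ccna2, Ccne2, Gins1, Gins2, Gins4, Gmnn, Mcm4, Pole, Prim2 and Rfc2 had none. E2F-type letters stood in 11 of the 33 windows (33.3%), in 2.26% of all 32851 windows in the table and in 3.82% of those of tested genes. A CCAAT box stood in 54.5% of the 33 windows, in 37.4% of all and in 37.6% of those of tested genes. CHR letters stood in 3 of the 33 (9.09%), in 7.2% of all and in 4.89% of those of tested genes. Mcm5 has overlapping E2F-type matches that begin at positions -153 and -149, and Mcm6 has 3 that begin at -110, -106 and -47. Pold1 has 1 at position 40, after its start. Neither window of Pold2 nor that of Rpa2 holds these E2F-type letters, while the upstream window of Pold2 and that of Rpa2 hold 3 CCAAT boxes each. Of the differing genes not shown, Rfc4, Rfc5 and Ccne1 have neither E2F-type letters nor a CCAAT box in their windows. Pcna has 1 CCAAT box and Rfc1 has 2, without E2F-type letters. The 11 genes with E2F-type letters had a median log2 fold change of -0.02 (-0.16 to 0.27) and the 17 without one had -0.02 (-0.30 to 0.16), values given as a description with no test.

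Among the other polymerase and primase genes none passed. Pola1, the catalytic subunit of polymerase alpha, had a log2 fold change of -0.06 (95% interval -0.18 to 0.07), and Pola2, its second subunit, -0.12 (-0.24 to 0.00). The primase genes Prim1 and Prim2 had 0.03 and -0.01. Pole, the catalytic subunit of polymerase epsilon, had 0.08 (-0.04 to 0.21).

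Rpa2 fell, while Rpa1 did not pass. Both encode subunits of RPA, the complex that coats single-stranded DNA. Rpa2 stood at 154, 157 and 154 CPM in vehicle replicates 1 to 3 and 133, 134 and 128 CPM in the 4OHT replicates, every 4OHT value below every vehicle value. Its mean went from 155 ± 1.79 to 132 ± 2.87 CPM (SD, n = 3) (log2 fold change -0.24, SE 0.06, 95% interval -0.36 to -0.12, edgeR adjusted p = 0.00411), and the call held in each of the 13 other fits (-0.26 to -0.22). Rpa1 stood at 500.3, 495 and 519 CPM in vehicle replicates 1 to 3 and 525, 540.3 and 529.9 CPM in the 4OHT replicates (log2 fold change 0.07, 95% interval -0.05 to 0.19). The third subunit gene, Rpa3, had a log2 fold change of 0.09 and did not pass. Whether the changes of Rpa1 and Rpa2 differ was not tested. Lig1, the ligase that seals Okazaki fragments, had a log2 fold change of 0.12 (edgeR adjusted p = 0.184, and 0.0208 without 4OHT replicate 3). Fen1, the flap nuclease that trims them, had -0.10 (95% interval -0.23 to 0.04). An antisense gene overlaps 78.8% of the Fen1 exon bases, so its reads are uncertain.

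The nucleotide supply genes showed no call in edgeR or DESeq2, and 0 of 3 had an unadjusted p under 0.05 in either. Rrm1 and Rrm2, the subunits of ribonucleotide reductase, stood at 399 ± 14.1 and 376 ± 10.3 CPM (SD, n = 3) and at 431 ± 18.4 and 423 ± 18.2 CPM (SD, n = 3) in vehicle and 4OHT, with log2 fold changes of -0.09 (95% interval -0.21 to 0.03) and -0.02 (-0.14 to 0.11). Tyms, the thymidylate synthase, had 0.03 (-0.12 to 0.17).

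Cyclin E and A genes and E2f1 gave no call in edgeR or DESeq2, with 0 of 4 at an unadjusted p under 0.05 in either. Ccne1, the cyclin that drives entry into S phase with CDK2, stood at 234, 248 and 245 CPM in vehicle replicates 1 to 3 and 247, 279 and 273 CPM in the 4OHT replicates. The lowest 4OHT sample lay among the vehicle values (log2 fold change 0.12, SE 0.06, 95% interval -0.01 to 0.24, edgeR adjusted p = 0.195). With the block Ccne1 rose (log2 fold change 0.12, edgeR adjusted p = 0.0475), at the edge of the threshold, and without number 2 in that fit its adjusted p was 0.124. Without 4OHT replicate 1 the unblocked adjusted p was 0.0179. Ccne2, its paralogue, stood at 24.7, 24.05 and 24.6 CPM in vehicle replicates 1 to 3 and 23.97, 15.3 and 21.8 CPM in the 4OHT replicates (log2 fold change -0.10, 95% interval -0.27 to 0.06). The lowest of these values rests on 8 reads, and the opposite-strand gene Ints8 overlaps 17.4% of the exon bases. Ccna2, the cyclin of S phase and G2, stood at 349.7, 365 and 365 CPM in vehicle replicates 1 to 3 and 357, 317 and 375 CPM in the 4OHT replicates (log2 fold change -0.01, 95% interval -0.13 to 0.12). E2f1, an activator of S phase genes, stood at 49.2, 50.2 and 49.3 CPM in vehicle replicates 1 to 3 and 52.1, 47.7 and 57.1 CPM in the 4OHT replicates (log2 fold change 0.13, SE 0.07, 95% interval -0.01 to 0.27, edgeR adjusted p = 0.173). Its adjusted p was 0.0373 without 4OHT replicate 1. The groups overlapped for Ccna2 and E2f1.

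Of a further 48 replication genes outside the set, 1 rose, 2 fell and 45 did not pass, with a median log2 fold change of -0.02. Thus 6.25% of the 48 were called, beside 22.4% of all tested genes. Rnaseh2b, a subunit of the nuclease that removes RNA from DNA, went from 70.1 ± 3.91 to 56.7 ± 6.24 CPM (SD, n = 3) (log2 fold change -0.23, edgeR adjusted p = 0.0186), and Tk1, a thymidine kinase, from 66.9 ± 2.40 to 57.7 ± 3.94 CPM (SD, n = 3) (-0.21, adjusted p = 0.0309). Top1, a topoisomerase, rose with a log2 fold change of 0.23 (adjusted p = 0.0341), although its groups overlapped. Slbp, which binds histone messages, did not pass (-0.16, adjusted p = 0.0649), nor did the origin-firing kinase gene Cdc7 (-0.02). DESeq2 called none of the 48 (beside 7.07% of the genes it gave an adjusted p), with 3 at an unadjusted p under 0.05. The blocked fit called 1 rise and 7 falls (16.7%, beside 28.2% of all tested genes). Without vehicle replicate 2 or 3 none of the 48 was called (beside 16.0% and 16.9%). Without 4OHT replicate 1 there were 1 rise and 7 falls (16.7%, beside 25.6%).

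In the E2F and RB network 3 of 27 tested genes rose and 3 fell (22.2%, at the share of all tested genes), with a median log2 fold change of -0.03. Cdkn1a, which encodes the CDK inhibitor p21, went from 34.8 ± 2.15 to 26.3 ± 2.98 CPM (SD, n = 3) (log2 fold change -0.32, edgeR adjusted p = 0.00334). Cdk2, the kinase partner of cyclins E and A, went from 89.3 ± 4.15 to 77.9 ± 4.61 CPM (SD, n = 3) (-0.23, adjusted p = 0.0132). Mybl2, a cell cycle transcription factor, rose from 768 ± 7.22 to 870.2 ± 20.01 CPM (SD, n = 3) (0.19, adjusted p = 0.0199), and Tfdp2, a dimer partner of E2F proteins, had a log2 fold change of 0.21 (adjusted p = 0.0211). The remaining calls, named after their values were seen, were Rb1 (0.27), whose groups overlapped, and E2f8 (-0.20). DESeq2 called 1 rise and 0 falls here (3.70%, beside 7.07% of the genes it gave an adjusted p). The counts of rises and falls were 1 and 2 without vehicle replicate 1 (11.1%, beside 17.8% of all tested genes). They were 0 and 1 without vehicle replicate 2 and 2 and 1 without vehicle replicate 3 (beside 16.0% and 16.9%). Without 4OHT replicate 1 they were 3 and 5 (29.6%, beside 25.6%).

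Of 34 genes of G2 and mitosis 2 fell and none rose (5.88%, beside 22.4% of all tested genes), with a median log2 fold change of -0.02. An unadjusted p under 0.05 was held by 3 of the 34, beside 4868 of all 14458 tested genes. DESeq2 made 0 calls here (beside 7.07% of the genes it gave an adjusted p), with 2 at an unadjusted p under 0.05. Cdc25b, a phosphatase that activates CDK1, went from 27.4 ± 0.696 to 21.4 ± 0.878 CPM (SD, n = 3) (log2 fold change -0.35, edgeR adjusted p = 0.00187), and Birc5, which encodes survivin, from 146 ± 6.45 to 126 ± 6.67 CPM (SD, n = 3) (-0.18, adjusted p = 0.0436). Nusap1 and Cenpa, of the spindle and the centromere, did not pass (-0.16 and -0.14). The blocked fit called 7 falls and 0 rises (20.6%, beside 28.2% of all tested genes). There were 4 rises and 3 falls without 4OHT replicate 3 (20.6%, beside 27.2%). Without 4OHT replicate 1 there were 1 rise and 8 falls (26.5%, beside 25.6%). There was 1 fall without vehicle replicate 2, vehicle replicate 3 or 4OHT replicate 2 (beside 16.0%, 16.9% and 21.1% of all tested genes).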

How the data were processed

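Libraries for sequencing were made with a NEBNext Ultra kit, per the labels' protocols, from poly(A) RNA of the 6 samples. The deposited table holds raw whole-number counts per gene symbol, 1 column per sample; the submitters' processing notes list the mm9 build and the tools STAR and DESeq, without versions. Which counter, annotation and strand setting were used is not given in the sources used here. In all the table held 0 columns of other samples. Replicate numbers come from the titles.

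Genes were filtered with filterByExpr (minimum count 10), TMM factors (0.979 to 1.017) scaled the libraries, and edgeR 4.0.16 in R 4.3.3 fitted its quasi-likelihood model (prior count 0.125) to all 6 samples with treatment as the term. Benjamini-Hochberg adjustment ran over all 14458 tested genes (threshold 0.05). Alternatives used DESeq2 1.42.0, limma 3.58.1, other filters, a replicate block and fits without each sample. The procedure was tested on simulated data, where the share of false calls came out above the nominal threshold and many of the smallest changes put in were missed. The 38 genes and the other lists were chosen with earlier results of these data known. Named in full were genes past the threshold, Mcm2 to Mcm7, Pcna, Ccne1, Ccne2, Ccna2 and E2f1; from each other list came the 4 genes with the smallest adjusted p, plus Cdkn1a, Cdk2 and Cdc7. Other genes named were picked with their values in view.

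Deviations from group means correlated positively in same-numbered samples (0.57, 0.15 and 0.39 across 3632 genes with mean log2 CPM above 6, which are not independent). The deviations within a group of 3 sum to 0, so these correlations are tied and are not 3 separate signs of pairing. The numbers were taken as pairs from the data alone, and no label says what they mark. The correlation of vehicle replicate 2 was highest with 4OHT replicate 3 (0.45), not with its own number. No 2 replicates agreed within sampling noise (lowest chi-square per degree of freedom 1.13, 4OHT replicates 2 and 3). Transcript lengths and overlaps came from GENCODE vM21 on GRCm38, not mm9; promoter windows came from RefSeq on GRCm38.p6. Near-identical transcripts (blastn 2.17.0, coverage of 50% or more at 95% identity) were found for Mcm7 and Pcna among symbols that the count table does not list. The search also matched Fen1 to its antisense gene and Gins2 to Gse1. Both of these partners overlap the gene's exons on the opposite strand, so these matches do not show separate copies.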

Additional observations from a re-analysis of the deposited data

How the results depend on the processing

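Other fits numbered 13, of which the block without replicate 2 of both groups was chosen after seeing the data. Of the 9 genes called with or without the block, Rfc1 changed sign in 1 unblocked fit, that without 4OHT replicate 3 (log2 fold change 0.02), and the other 8 kept their direction in all 13. With RLE size factors 5 of the 38 genes fell, and with quantile normalization in limma-voom also 5; that fit called 2088 of all genes, 0 rises among the other replication genes and 1 in the E2F and RB network. DESeq2 called 944 of all genes, 0 rises and 0 falls among the other replication genes, 1 rise and 0 falls in the E2F and RB network, and 0 falls in G2 and mitosis. With the replicate block, 3 of the 38 genes rose and 6 fell, 7 other replication genes fell and 7 G2 and mitosis genes fell; the counts of the E2F and RB network and of all genes stayed within 1.5 times. The block without replicate 2 of both groups gave 2 rises and 5 falls among the 38. Leaving out 1 sample at a time gave 1 to 4 rises and 2 to 5 falls among the 38, 0 to 2 and 0 to 7 among the other replication genes, 0 to 4 and 1 to 5 in the E2F and RB network, 0 to 4 and 1 to 8 in G2 and mitosis, and 2368 to 3950 calls among all genes. The cause of these shifts was not tested. In the 4OHT group with 1 deep sample left out, the fit rests on replicate 2 with 515388 counts and 1 deep library. The median log2 fold change of the 38 genes stayed between -0.05 and -0.01.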

Other observations

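Some long transcripts of the cell cycle were highest in replicate 1 of both groups; they were picked after their values were seen, and none passed the test between treatments. Cenpe, a kinetochore motor gene, stood at 207, 159.7 and 168 CPM in vehicle replicates 1 to 3 and 235, 137 and 136 CPM in the 4OHT replicates. Cenpf stood at 634, 495 and 509 CPM in vehicle replicates 1 to 3 and 650.5, 517 and 434 CPM in the 4OHT replicates, and the proliferation marker gene Mki67 at 455, 374 and 399.6 CPM in vehicle replicates 1 to 3 and 479.9, 332 and 299 CPM in the 4OHT replicates. Rfc1 was likewise highest in replicate 1 of both groups.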
